A study of Mus musculus with 8 samples.

Results

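The genes examined here were 7 genes of the inflammasome and of pyroptosis, the lytic form of cell death that it starts: Nlrp3, Aim2, Nlrp1b, Pycard, Casp1, Casp4 and Gsdmd. They were chosen by name, and all 7 had an Ensembl row in a table of 54146 genes from bulk RNA-Seq of adipose tissue macrophages. All 7 passed the filter of at least 10 counts in at least 4 libraries, as did 17095 genes in all. The libraries came from the epididymal white adipose tissue (eWAT) of 4 C57Bl6 mice, which the study's methods describe as male. Each mouse ate a high fat diet at will for 24 weeks and was then placed on short-term caloric restriction (stCR), with 30% less food, for 2 weeks. From each mouse, CD45+, CD3-, B220-, Ly6G-, SiglecF-, CD11b+ cells, labelled as macrophages, were sorted into an FCGR4+ and an FCGR4- population, so that the 8 libraries form 4 pairs and all come from obese mice after stCR. FCGR4 is an activating receptor for IgG antibodies. No library came from a mouse fed at will to the end or from a lean mouse, so the comparison is between populations and not between diets.

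An inflammasome is a protein complex that macrophages assemble in the cytosol when a sensor meets a danger or microbial signal. The sensors differ in what they respond to, but NLRP3 and AIM2 both act through the adaptor ASC, which Pycard encodes, to cluster and activate caspase-1. Caspase-1 matures the cytokines IL-1β and IL-18 and cuts gasdermin D, whose freed end forms pores in the plasma membrane, and caspase-11, the product of mouse Casp4, cuts gasdermin D after sensing lipopolysaccharide in the cytosol. In obese adipose tissue this pathway is known mainly for NLRP3 and for IL-1β made by macrophages. RNA levels do not report on assembly or on cleavage of these proteins.

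In the deposited mm10 annotation the sensor genes span chr11:59541568-59566956 on the plus strand (Nlrp3), chr1:173350879-173466040 on the plus strand (Aim2) and chr11:71153102-71230733 on the minus strand (Nlrp1b). Pycard spans chr7:127989708-127993867 on the minus strand. The caspase genes lie side by side on the plus strand at chr9:5298517-5307265 (Casp1) and chr9:5308828-5336783 (Casp4), and Gsdmd spans chr15:75862327-75867408 on the plus strand. Counts were taken over the exons of each gene.

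The promoters of the genes that were higher in the FCGR4+ library of every mouse, Pycard, Casp1 and Aim2, are shown first, chosen after their values were seen. Sequences are the 250 bases before the RefSeq start site, on the strand of the gene, from the GRCm38.p6 build. They are Pycard at chr7:127993868-127994117 on the minus strand, Casp1 at chr9:5298267-5298516 on the plus strand and Aim2 at chr1:173420354-173420603 on the plus strand. Capitals mark the letters GAGGAAGT, or ACTTCCTC where the match is on the other strand, a string bound by PU.1, the transcription factor that specifies myeloid cells.
Pycard: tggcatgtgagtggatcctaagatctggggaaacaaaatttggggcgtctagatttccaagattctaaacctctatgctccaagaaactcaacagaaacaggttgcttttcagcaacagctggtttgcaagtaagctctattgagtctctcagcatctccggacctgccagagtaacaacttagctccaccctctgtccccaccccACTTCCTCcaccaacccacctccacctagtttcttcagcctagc
Casp1: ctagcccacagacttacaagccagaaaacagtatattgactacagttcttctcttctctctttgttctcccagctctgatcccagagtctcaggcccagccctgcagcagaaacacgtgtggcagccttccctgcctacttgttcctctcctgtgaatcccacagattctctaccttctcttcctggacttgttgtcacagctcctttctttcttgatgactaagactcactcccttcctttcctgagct
Aim2: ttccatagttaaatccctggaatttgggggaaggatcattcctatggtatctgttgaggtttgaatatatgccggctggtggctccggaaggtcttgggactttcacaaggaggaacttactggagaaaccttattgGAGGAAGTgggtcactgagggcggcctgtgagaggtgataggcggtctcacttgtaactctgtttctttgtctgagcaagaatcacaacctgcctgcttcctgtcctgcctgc

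The RefSeq promoter table, with 300 bases around each start, held 9 promoters for 6 of the 7 genes, and no entry was matched for Gsdmd. In all, 4 strings were searched on both strands, of which 3 are reported here. The PU.1 string, found in 3.20% of all 32851 promoters, was in 1 promoter each of Pycard, Aim2 and Nlrp1b. The NF-κB core GGANTTTCC, found in 1.25% of all promoters, was in 1 of 2 Nlrp3 promoters, where it reads on the other strand. The interferon response core GAAANNGAA, in 8.56% of all promoters, was in none of the 9. Casp1 and Casp4, which lie next to each other on chromosome 9 with 1562 bases between them, had none of these 3 strings. Only these exact letters were searched, so other forms of the sites were not counted. The Casp4 promoters read ggggatttcccc, which the NF-κB string used here does not match. A match describes letters only and says nothing of binding. The other 2 matches are shown with their flanks, and capitals mark the match. Nlrp3 was at chr11:59541437-59541466 on the plus strand and Nlrp1b at chr11:71230811-71230839 on the minus strand.
Nlrp3: gcttgggtttGGAAAATCCatccagatgag
Nlrp1b: ccagtgtttaGAGGAAGTgcatctgtgca

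The sort was checked first on the gene it was made with. Fcgr4 was 3.05-fold higher in FCGR4+ macrophages by edgeR's quasi-likelihood test (log2 fold change 1.61 ± 0.17 SE, adjusted p = 0.0162), and it was higher in 4 of 4 mice. Total counts ran from 35992794 to 66856746 per library, so that 3 counts, taken as the floor, stood for 0.0440 to 0.0883 CPM, the normalized read count scaled to library size. All 7 inflammasome genes were above this floor in every library, with 16 counts or more. Of 10 macrophage markers none passed the threshold of an adjusted p under 0.1 with edgeR, 6 had an unadjusted p under 0.05, and DESeq2 called 6, all higher in FCGR4+ macrophages. Their summed level was 27442 to 52031 CPM in FCGR4+ and 21482 to 46510 CPM in FCGR4- libraries, higher in FCGR4+ in all 4 mice. Markers of several other cell types were lower in FCGR4+ libraries. By edgeR these were 5 of 7 tested for T and NK cells, 2 of 5 for B cells, 1 of 6 for monocytes and 1 of 5 for mesothelial cells. Of 5 endothelial and 6 adipocyte markers 0 were called by either edgeR or DESeq2. In each of these lists 1 marker had an unadjusted p under 0.05 by edgeR. The endothelial marker was lower in FCGR4+ libraries and the adipocyte marker was higher. Neutrophil, mast cell, dendritic cell and fibroblast markers are given beside the genes that they accompany. In bulk samples, fewer cells of a type and less RNA per cell cannot be told apart.

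No inflammasome gene passed the threshold between FCGR4+ and FCGR4- macrophages by edgeR, and 1 did by DESeq2. With edgeR's paired fit 0 of 7 were called, against 0.0819% of all genes called higher, 1.19% called lower and 1.27% in either direction. At an unadjusted p under 0.05 there were 2, Casp1 and Pycard, against 9.77% of all genes. With 1 mouse left out this set was Nlrp3 and Casp1 without mouse 1, Casp1 and Casp4 without mouse 2, empty without mouse 3 and Nlrp1b without mouse 4, so that Pycard was in none of them. DESeq2 with the same paired model called 1, Casp1, as higher, against 1.12% of all genes called higher by that tool. Of the 7 log2 fold changes, 6 were above 0, beside 49.7% of all genes tested, and their median was 0.36, beside -0.0025 for all genes tested. The 10 macrophage markers were shifted more, with 9 above 0 and a median of 0.49. Higher levels in 4 of 4 mice were seen for 3 of 7, against 8.35% of all genes. For no gene did the populations separate completely, with every FCGR4+ library above every FCGR4- library, a pattern that 0.883% of all genes showed. The summed level of the 7 genes was 293.6 to 367.0 CPM in FCGR4+ and 268.1 to 298.0 CPM in FCGR4- libraries, and it was higher in FCGR4+ in all 4 mice.

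**Figure D1:**
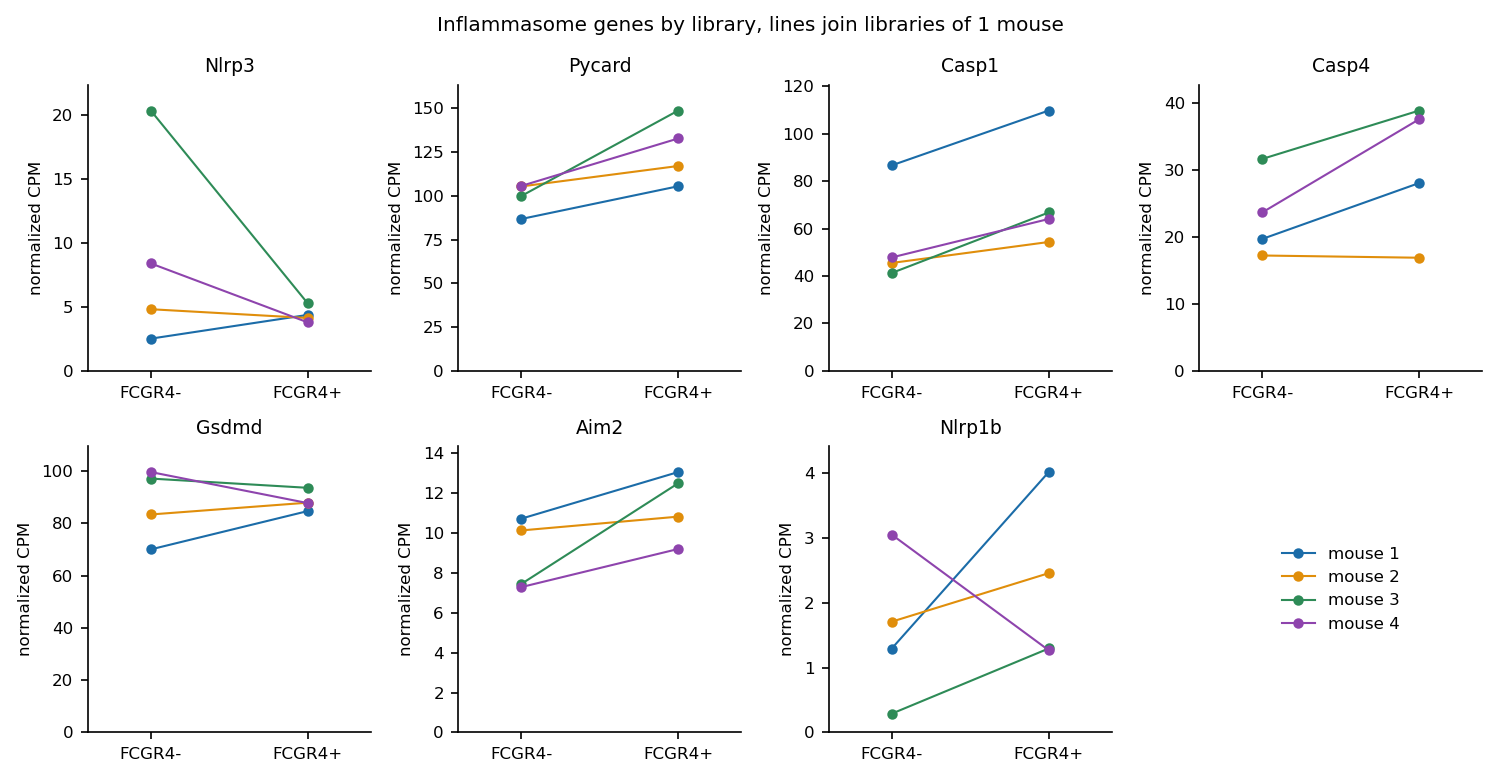
Normalized CPM of the 7 inflammasome genes in each library, with the FCGR4- library at left, the FCGR4+ library at right and a line joining the libraries of 1 mouse. The lines for Pycard, Casp1 and Aim2 slope up in 4 of 4 mice, and those for Gsdmd slope up in 2 and down in 2. The steepest for Nlrp3 is that of mouse 3, from 20.4 to 5.29 CPM. None of the 7 passed the threshold by edgeR.

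Among the sensors, Nlrp3, which senses potassium loss and membrane damage, was low in FCGR4+ macrophages and scattered in FCGR4- macrophages. Its level was 4.38, 4.14, 5.29 and 3.80 CPM in the FCGR4+ libraries of mice 1 to 4 and 2.52, 4.83, 20.4 and 8.41 CPM in the FCGR4- libraries. The FCGR4- library of mouse 3 stood highest, that of mouse 1 lowest of all 8, and the populations overlapped. The log2 fold change was -0.65 ± 0.44 SE, with a 95% interval from -1.69 to 0.40 and an adjusted p of 0.647 (edgeR, quasi-likelihood), so that the interval of the fold ran from 0.310 to 1.32. The direction depended on the animals. Mice 1 and 2 and mice 3 and 4 carry different ID prefixes in the labels, whose meaning the labels do not give. The log2 fold change of Nlrp3 was 0.29 in mice 1 and 2 alone and -1.57 in mice 3 and 4 alone (adjusted p = 0.998 and 0.126 by edgeR), and without mouse 3 it was -0.21. The difference between these pairs of mice was not tested.

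Beside Nlrp3, neutrophil and monocyte markers varied in the same order of mice in the FCGR4- libraries, and not in the FCGR4+ libraries. The summed level of 8 neutrophil markers was 384, 404, 2412 and 652 CPM in the FCGR4- libraries of mice 1 to 4, with mouse 3 highest as for Nlrp3, and 114, 174, 533 and 147 CPM in the FCGR4+ libraries. Neutrophils carry Ly6G, against which the sort selected. Of the 7 markers tested 5 were called lower in FCGR4+ libraries by edgeR, and none of the 8 was at 0 in all libraries. The summed level of 6 monocyte markers, of which edgeR called 1 lower and none was at 0 in all libraries, was 663, 1167, 4177 and 2877 CPM in the FCGR4- and 693, 752, 2874 and 2718 CPM in the FCGR4+ libraries of mice 1 to 4. The part of neutrophil or monocyte RNA in the Nlrp3 values was not tested.

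Aim2, which binds double-stranded DNA in the cytosol, was slightly higher in FCGR4+ macrophages of each mouse. It stood at 13.05, 10.8, 12.5 and 9.19 CPM in FCGR4+ and at 10.7, 10.1, 7.44 and 7.28 CPM in FCGR4- libraries. The populations overlapped across mice, since FCGR4- levels of mice 1 and 2 exceeded the FCGR4+ level of mouse 4. The fold change was 1.29, with a 95% interval from 0.956 to 1.74 (adjusted p = 0.563, edgeR's quasi-likelihood test). Nlrp1b, a sensor that is activated when its own N-terminal part is degraded, was the lowest of the 7 per kilobase and had the widest interval. Its level was 4.01, 2.45, 1.29 and 1.27 CPM in FCGR4+ and 1.29, 1.71, 0.289 and 3.05 CPM in FCGR4- libraries, and mouse 4 went against the other 3. Its log2 fold change was 0.78 ± 0.61 SE (adjusted p = 0.678, edgeR) and ranged from 0.30 without mouse 3 to 1.42 without mouse 4. Of 50-base words in its transcripts 1.45% also occurred in other genes, Nlrp1a and Nlrp1c-ps, and multimapping fragments were counted at each locus.

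Pycard, the gene of the adaptor ASC, had a fold of 1.26 between FCGR4+ and FCGR4- macrophages and was higher in FCGR4+ in 4 of 4 mice. It stood at 105.5, 117.0, 148.7 and 132.7 CPM in FCGR4+ and at 86.8, 105.3, 99.9 and 105.6 CPM in FCGR4- libraries. Only the FCGR4+ library of mouse 1 fell within the FCGR4- range, just under its highest value. The log2 fold change was 0.33 ± 0.13 SE, with a 95% interval from 0.02 to 0.65 and an unadjusted p of 0.0392 that became 0.482 after adjustment (edgeR's quasi-likelihood test). In the deposited annotation 12.8% of its exon bases, which sum to 3800, also lie in Gm45205 on the opposite strand, and since strand was not used in counting, reads from the 2 genes cannot be told apart there.

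Casp1, the gene of the protease at the center of the pathway, had the lowest p of the 7, with a fold of 1.35 between FCGR4+ and FCGR4- macrophages and higher levels in FCGR4+ in 4 of 4 mice. Its level was 109.8, 54.4, 66.8 and 64.1 CPM in FCGR4+ and 86.7, 45.5, 41.3 and 47.9 CPM in FCGR4- libraries. Mouse 1 was well above the other 3 mice in both populations, and the populations overlapped. The 95% interval of the fold ran from 1.08 to 1.68, with an unadjusted p of 0.0150 and an adjusted p of 0.330 in edgeR's quasi-likelihood fit and of 0.0878 with DESeq2. Without mouse 1 the log2 fold change was 0.46, and the adjusted p by edgeR was 0.370.

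Casp4, the lipopolysaccharide sensor of the noncanonical arm, was higher in FCGR4+ macrophages of 3 of 4 mice. It stood at 28.1, 16.9, 38.9 and 37.6 CPM in FCGR4+ and at 19.7, 17.2, 31.7 and 23.7 CPM in FCGR4- libraries, and the populations overlapped. The pair from mouse 2 differed by 0.03 on the log2 scale, in the opposite direction to the other 3. The fold was 1.29, with a 95% interval from 0.988 to 1.67 (adjusted p = 0.522, edgeR's quasi-likelihood test). Gsdmd, the gene of the pore-forming protein that both caspases cut, was at nearly the same mean level in both populations. Its mean was 88.4 ± 3.71 CPM in FCGR4+ and 87.5 ± 13.7 CPM in FCGR4- libraries (SD, n = 4 each). The pairs moved apart by animal, with log2 ratios of 0.27 and 0.08 in mice 1 and 2 and of -0.05 and -0.18 in mice 3 and 4. With the adjusted p at 0.949 by edgeR, the 95% interval of the fold ran from 0.818 to 1.27.

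**Figure D2:**
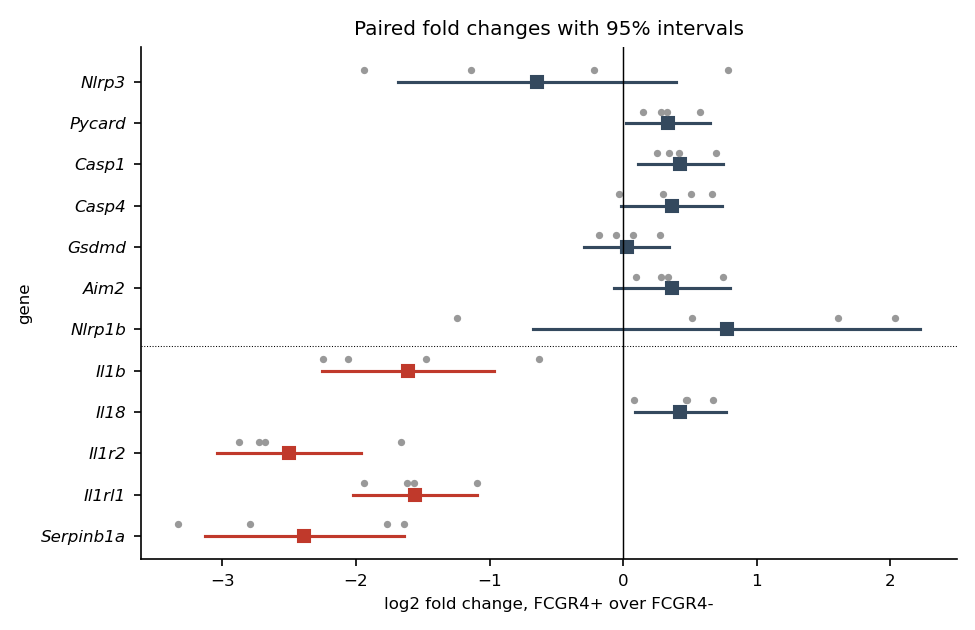
Log2 fold changes of FCGR4+ over FCGR4- (squares) with 95% intervals (lines) and the log2 ratio of each mouse (gray points), for the 7 inflammasome genes above the dotted line and for 5 further pathway genes below it; red marks an adjusted p under 0.1. By edgeR none of the 7 is red, and the intervals of Pycard and Casp1 lie above 0.

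Levels were then compared between genes per kilobase of exon (RPKM, computed from normalized CPM and the deposited gene length). In FCGR4+ macrophages the order was Casp1 at 49.3 ± 16.4, Gsdmd at 37.2 ± 1.56, Pycard at 33.2 ± 4.95, Casp4 at 8.19 ± 2.75, Aim2 at 3.25 ± 0.498, Nlrp3 at 1.08 ± 0.157 and Nlrp1b at 0.358 ± 0.205 RPKM (mean ± SD, n = 4). The ranges of Casp1 and Gsdmd overlapped, as did those of Gsdmd and Pycard, while each later step down separated the ranges of the 4 mice. In FCGR4- macrophages Casp1 at 37.0 ± 14.1 and Gsdmd at 36.8 ± 5.76 RPKM could not be ordered, since Casp1 was the higher in mouse 1 alone of the 4 mice. The order of the other 5 by mean was the same as in FCGR4+ macrophages, with Nlrp3 at 2.23 ± 1.96 overlapping Aim2 at 2.54 ± 0.509 RPKM. In both populations Casp1, Gsdmd and Pycard each averaged 26.2 RPKM or more and the 3 sensors 3.25 RPKM or less. The deposited length joins the exons of all transcripts of a gene, so genes with long rare transcripts appear lower per kilobase. Pycard had the highest mean CPM of the 7 in both populations, at 126.0 and 99.4 CPM. Its place below Casp1 and Gsdmd therefore rests on its deposited length of 3800 bases.

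**Figure D3:**
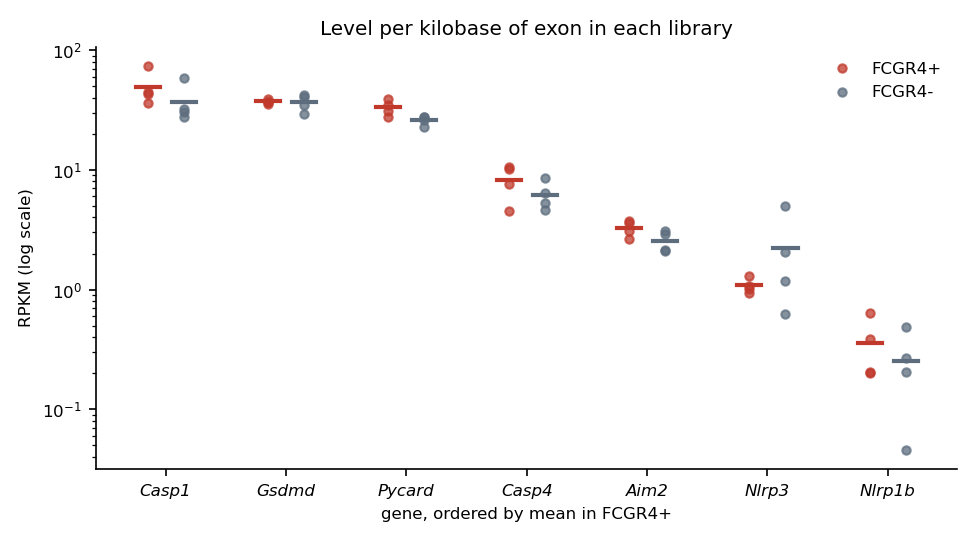
RPKM on a log scale of the 7 genes in each library (points) with the mean of 4 mice (bars), FCGR4+ in red and FCGR4- in gray, ordered by the FCGR4+ mean. The points step down from Casp1, at 49.3 RPKM on average in FCGR4+, to Nlrp1b, at 0.358 RPKM, and the FCGR4- points of Nlrp3 span 0.622 to 5.02 RPKM.

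The 7 genes did not vary as 1 group over the 8 libraries. Pearson correlations of log2 CPM, given as descriptions over libraries that share mice, ran from -0.67 for Nlrp3 with Aim2 to 0.77 for Nlrp3 with Gsdmd. Casp1 and Aim2 had an r of 0.74, while Casp1 and Pycard had an r of -0.05. For each gene the most similar patterns among 12932 genes with a mean of at least 1 CPM in both populations were listed. For Nlrp3 these were Bcl3 and Rara (r = 0.977 and 0.976), for Pycard Etfa and Emc6 (r = 0.968 and 0.960), and for Casp1 Rasa1 and Serpinb9 (r = 0.975 and 0.969). Casp4 was most like Hnrnpdl and Cxcl1 (r = 0.980 and 0.974), Gsdmd like Drg2 and Pilrb2 (r = 0.977 and 0.961), Aim2 like Tmco1 and Cnep1r1 (r = 0.986 and 0.972) and Nlrp1b like Zfp84 and Golgb1 (r = 0.964 and 0.947). With 8 points and many candidates, r of this size is the top of a long list.

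The rest of the pathway was taken from 9 lists by role, with 93 genes of which 86 were tested. By edgeR's quasi-likelihood test 0 were higher in FCGR4+ macrophages, 4 (4.65%) were lower, against 1.19% of all genes tested, and 82 were not called. The median log2 fold change of the 86 was -0.04. The 4 were Il1b, Il1r2 and Il1rl1 of the IL-1 family and Serpinb1a, a protease inhibitor listed among genes that restrain the pathway. DESeq2 called 11 (12.8%), against 5.99% of all genes called by that tool and 4.87% called lower, of which 4 were higher, among them Il18bp, Nek7 and Gbp2, and 7 were lower (the same 4, Il33, Sigirr and Nlrp12). Il18bp, Gbp2, Il33 and Sigirr are named here after their values were seen.

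Il1b, the gene of the main cytokine that caspase-1 matures, was lower in FCGR4+ macrophages in 4 of 4 mice. Its level was 38.4, 29.7, 173.7 and 62.3 CPM in FCGR4+ and 59.5, 82.9, 724.6 and 295.5 CPM in FCGR4- libraries. Mice 3 and 4 were higher than mice 1 and 2 within each population, so that the populations overlapped although every pair fell. The log2 fold change was -1.61 ± 0.27 SE (3.06-fold lower, adjusted p = 0.0666 with edgeR). This call was lost without mouse 2, 3 or 4, with log2 fold changes of -1.66, -1.47 and -1.39 and adjusted p of 0.159, 0.122 and 0.194, and held without mouse 1, at -1.93 with an adjusted p of 0.0425. Il1r2, the decoy receptor that binds IL-1 without signaling, was 5.65-fold lower (log2 fold change -2.50 ± 0.23 SE, adjusted p = 0.00823 by edgeR). It stood at 6.85, 4.01, 38.2 and 19.6 CPM in FCGR4+ and at 21.8, 26.7, 280.1 and 125.7 CPM in FCGR4- libraries, again with mouse 3 highest in both. The neutrophil marker sum given above was also highest in mouse 3 in both populations and lower in FCGR4+ in 4 of 4 mice. The monocyte marker sum was higher in mice 3 and 4 than in mice 1 and 2 within each population, as for Il1b and Il1r2. Unlike these genes, it was higher in FCGR4+ in 1 of 4 mice, mouse 1, at 693 against 663 CPM. The part of these cells in both results was not tested.

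Il1rl1, which encodes the IL-33 receptor ST2, and Serpinb1a were highest in the FCGR4- library of mouse 1. Il1rl1 stood at 9.95, 3.91, 3.45 and 4.88 CPM in FCGR4+ and at 30.6, 15.1, 10.3 and 10.4 CPM in FCGR4- libraries. The ranges did not overlap, and the log2 fold change was -1.56 ± 0.20 SE (adjusted p = 0.0300 by edgeR, and -1.54 with an adjusted p of 0.123 without mouse 1). Serpinb1a stood at 8.04, 5.22, 5.89 and 7.66 CPM in FCGR4+ and at 81.4, 36.4, 20.1 and 23.9 CPM in FCGR4- libraries, also without overlap. Its log2 fold change was -2.39 ± 0.32 SE (adjusted p = 0.0361 by edgeR, and -2.25 with an adjusted p of 0.121 without mouse 2). Of its 50-base words 2.81% also occurred in other genes, among them its paralogs Serpinb1b and Serpinb1c.

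Mast cell and basophil markers moved with these genes, and no gate of the sort was named for those cells. Of 7 tested, 7 were called lower in FCGR4+ libraries by edgeR, and their summed level was 6.85 to 24.0 CPM in FCGR4+ against 2073, 1133, 194 and 450 CPM in the FCGR4- libraries of mice 1 to 4. Dendritic cell markers (4 of 8 called lower) summed to 17.0 to 23.8 CPM in FCGR4+ and 56.7 to 105.5 CPM in FCGR4- libraries, and fibroblast and preadipocyte markers (5 of 8 called lower) to 143 to 276 and 356 to 1439 CPM. None of these markers was at 0 in all libraries. The sort selected for CD45 and CD11b, which fibroblasts and preadipocytes lack. The part of these cells in the Il1rl1 and Serpinb1a values was not tested.

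**Figure D4:**
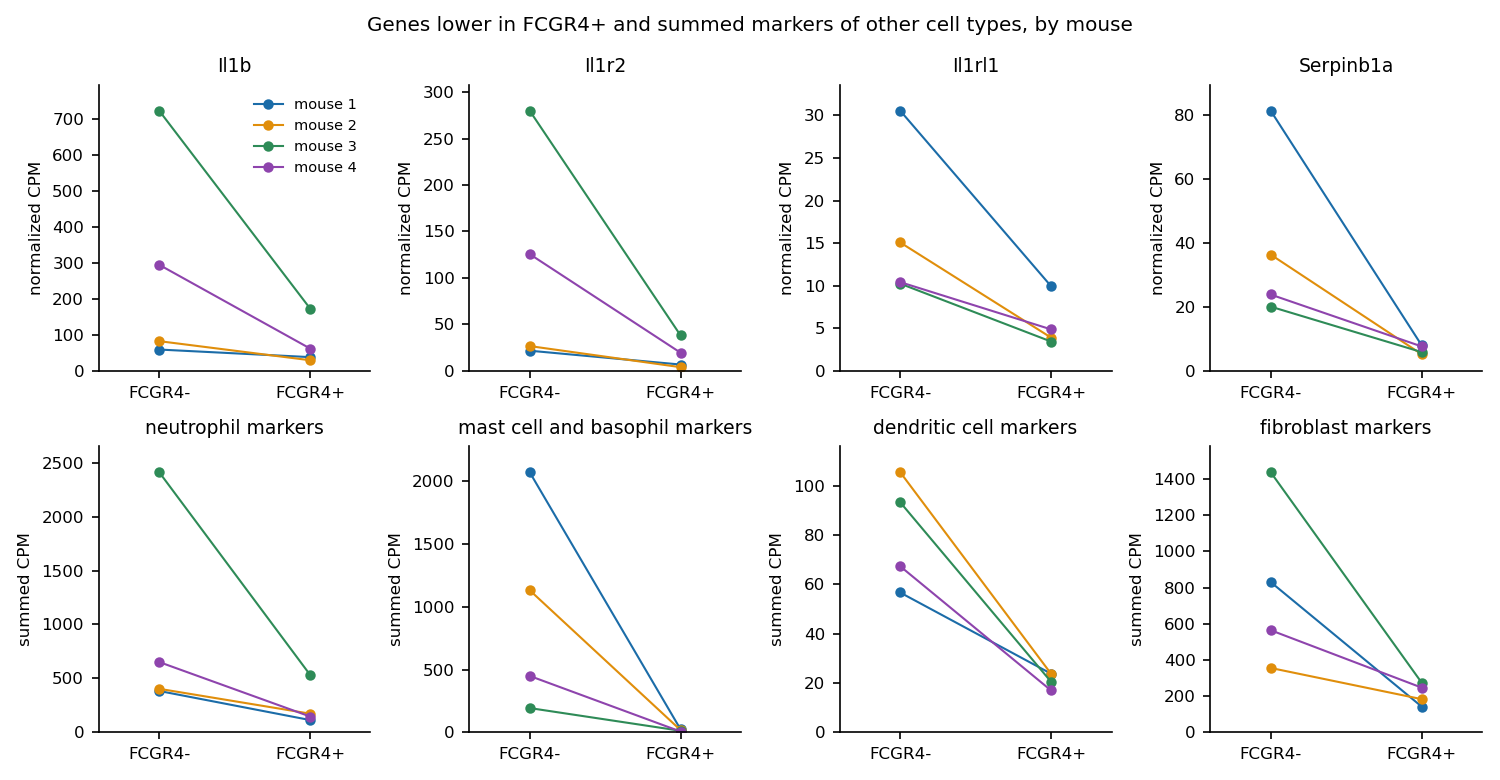
Upper row, normalized CPM of the 4 pathway genes that were called lower in FCGR4+ libraries; lower row, summed CPM of the markers of 4 other cell types; lines join the FCGR4- and FCGR4+ libraries of 1 mouse. Every line falls from FCGR4- to FCGR4+, mouse 3 is highest for Il1b, Il1r2 and the neutrophil sum (2412 CPM in FCGR4-), and mouse 1 is highest for Il1rl1, Serpinb1a and the mast cell and basophil sum (2073 CPM in FCGR4-).

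The other genes of the IL-1 family were not called by edgeR with the filter and method described. Il18, the second cytokine that caspase-1 matures, went the opposite way to Il1b in every mouse, at 59.5, 23.5, 69.3 and 73.2 CPM in FCGR4+ and 42.7, 22.2, 43.4 and 52.8 CPM in FCGR4- libraries. Its fold was 1.35, with a 95% interval from 1.06 to 1.71 (adjusted p = 0.379, edgeR's quasi-likelihood test). Il18bp, which encodes a secreted binder that neutralizes IL-18, stood at 39.6 to 62.3 CPM in FCGR4+ and 8.30 to 30.8 CPM in FCGR4- libraries (log2 fold change 1.24 ± 0.25 SE, adjusted p = 0.118 by edgeR). The populations did not overlap, and Il18bp passed with DESeq2 (adjusted p = 0.000106), with edgeR's newer quasi-likelihood method (0.0421), with no filter on low counts (2.57e-05) and with at least 10 counts in every library (0.0538). Of the 12 genes tested in this family 10 had a negative log2 fold change, with a median of -1.44.

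In the other 7 lists edgeR's quasi-likelihood test called 0 of 67 genes, 7 (10.4%) had an unadjusted p under 0.05 and DESeq2 called 4 (5.97%). These shares are near the 9.77% and 5.99% of all genes. The gene with the lowest p is given as a value for 6 of these lists. Nek7, a kinase that binds NLRP3 during assembly, had a log2 fold change of 0.44 ± 0.13 SE (adjusted p = 0.283 by edgeR) and was higher in 4 of 4 mice. Zbp1, a nucleic acid sensor of necroptosis, had a log2 fold change of 0.54 ± 0.20 SE (adjusted p = 0.429) and was also higher in 4 of 4 mice. Nlrp12, a sensor of the NLR family, had a log2 fold change of -2.97 ± 1.17 at under 4 CPM in every library (adjusted p = 0.479). Chmp4b, of the machinery that repairs membrane pores, was at 0.44 ± 0.23 (adjusted p = 0.565), Casp6 at -0.21 ± 0.15 (adjusted p = 0.655) and Traf6, an adaptor of Toll-like receptor signaling, at -0.56 ± 0.25 (adjusted p = 0.527), all by edgeR.

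**Figure D5:**
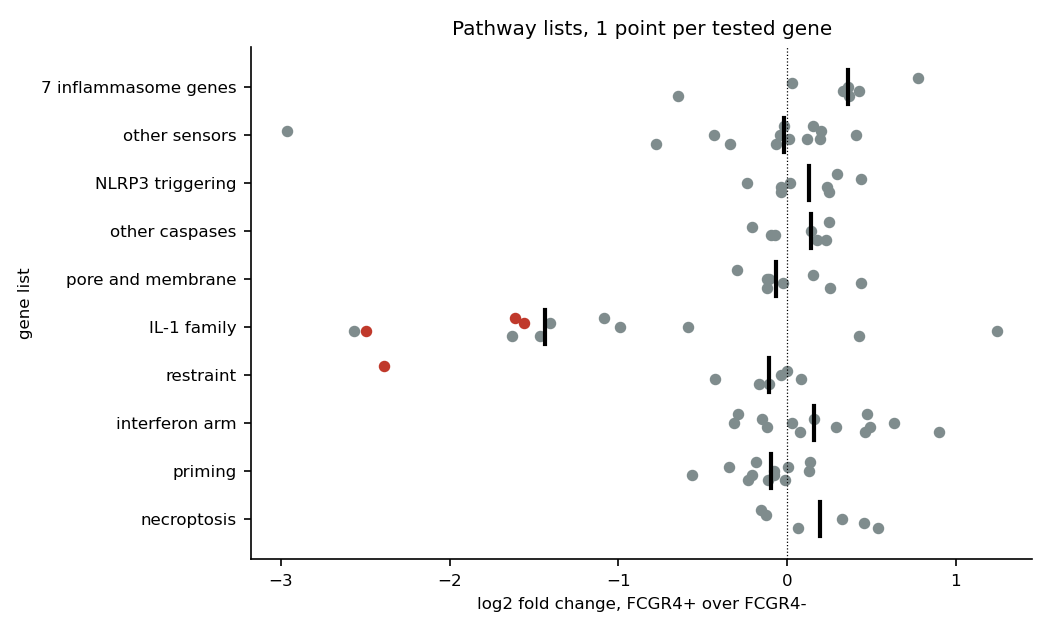
Log2 fold change of FCGR4+ over FCGR4- for each tested gene (points) in the 7 inflammasome genes and in 9 further lists, with the list median (black bar); red marks an adjusted p under 0.1. The 4 red points are 3 genes of the IL-1 family, whose median is -1.44, and Serpinb1a, and the median of the 7 inflammasome genes is 0.36.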

How the data were processed

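Bulk RNA-Seq had been performed on FCGR4+ and FCGR4- eWAT macrophages of 4 mice (8 libraries). The authors aligned reads to mm10 with STAR and made the deposited counts, whole and unnormalized per gene, with featureCounts 1.6.3 on GENCODE M18. Per the file header, fragments were counted without regard to strand, and multimapping fragments were counted at each locus. Ensembl IDs were matched to symbols with GENCODE M21.

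The 17095 genes that reached 10 counts in 4 or more libraries were scaled by TMM and tested with edgeR 4.0.16 (R 4.3.3), glmQLFit and glmQLFTest, with mouse as a block, as in the study's paired model, and Benjamini-Hochberg adjustment over all genes (threshold 0.1). Same-numbered libraries come from the same mouse, and their deviations from the population means correlated at 0.291 to 0.428. SEs and 95% intervals come from this fit. DESeq2 1.42.0 was an alternative. Other settings were other scalings, filters and thresholds, no block, each mouse left out, and mice 1 and 2 alone or mice 3 and 4 alone. On counts simulated for this comparison (17095 genes, 200 changed), the edgeR fit recovered 83% of 4-fold and 55% of 2-fold changes, and 12 of its 150 calls were unchanged genes. CPM and RPKM were computed from the counts, TMM factors and deposited lengths. Correlations used log2 CPM with a prior count of 2. Libraries of 1 population differed by far more than counting noise, so none was a duplicate. All 8 sample columns were used. The floor of 3 counts covers counting error only.

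The genes and lists were chosen with earlier results of these data known. Named were the 7 genes, Fcgr4, Il1b, Il18, in each list the genes past the threshold (at most 4) or else the 1 with the lowest p, and the 2 genes most correlated with each of the 7; 1 gene that this rule names is not reported here. Promoters were taken from RefSeq (GRCm38.p6).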

Additional observations from a re-analysis of the deposited data

Results flagged for a closer look

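In 60 sets of 4 values (levels by population and log2 ratios by mouse of 20 genes, those named by the rule other than for a similar pattern), 1 value stood apart from the other 3 beyond Dixon's 95% limit in 4 sets, where chance gives about 3. For Casp1 in FCGR4- macrophages, mouse 1 at 86.7 CPM was separated from the other 3, at 41.3 to 47.9 CPM, by a gap of 0.855 of the whole range, and its FCGR4+ library was also the highest. For the log2 ratio of Il1r2, mouse 1 at -1.66 was separated from the other 3, at -2.88 to -2.68, by a gap of 0.841 of the range. For Nek7 in FCGR4+ macrophages, mouse 1 at 124.4 CPM was above the other 3, at 89.8 to 93.7 CPM, by a gap of 0.886 of the range. For Chmp4b in FCGR4- macrophages, mouse 2 at 6.39 CPM was below the other 3, at 8.28 to 8.54 CPM, by a gap of 0.879 of the range.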

How the results depend on the processing

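The number of inflammasome genes called was 0 in every edgeR setting tried and 1 with DESeq2, where Casp1 passed (log2 fold change 0.42, adjusted p = 0.0878). Pycard, Casp1, Casp4, Aim2 and Nlrp1b kept a positive log2 fold change in all 14 alternatives. Leaving out 1 mouse at a time gave 0.24 to 0.39 for Pycard, 0.33 to 0.48 for Casp1, 0.26 to 0.48 for Casp4, 0.23 to 0.45 for Aim2, 0.30 to 1.42 for Nlrp1b, -1.12 to -0.21 for Nlrp3 and -0.054 to 0.10 for Gsdmd. Nlrp3 turned to 0.29 with mice 1 and 2 alone. Gsdmd, near 0 throughout, turned to -0.061 with library size alone, -0.054 without mouse 1 and -0.14 with mice 3 and 4 alone. The cause was not tested.

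Without the mouse block, calls fell from 217 to 48 over all genes and from 4 to 1 in the 9 pathway lists, where the calls of Il1b, Il1r2 and Il1rl1 were lost (adjusted p = 0.783, 0.571 and 0.362) at log2 fold changes of -1.93, -2.73 and -1.58. Pathway calls were 11 with DESeq2, 8 with edgeR's newer quasi-likelihood method and 13 with no filter on low counts, and 2 to 4 without 1 mouse. Calls over all genes were 1024 with DESeq2 (81.3% of them lower, against 93.5% in the reported fit), 629 with the newer method, 1054 with no filter, 76 at a threshold of 0.05, 113 with mice 1 and 2 alone, 113 with mice 3 and 4 alone (74.3% lower) and 84 to 163 without 1 mouse. With library size alone the median log2 fold change of all genes was -0.09, and with no filter it was -0.16.

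The lowest count of any of the 7 genes was 16, for Nlrp1b in 1 library, and the precision of each fold is that of 4 pairs.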
